A study of Triticum aestivum with 12 samples.

Results

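The cultivar by stage interaction was measured in developing grains of bread wheat (Triticum aestivum), that is, the set of genes whose change between 5 and 14 days after flowering (DAF) differed between the cultivars TAM112 and TAM111. All 12 libraries of the series entered the contrast, which is the log2 fold change of 14 over 5 DAF in TAM112 minus that in TAM111. Of 65080 genes tested, 201 (0.309%) passed, meaning that the contrast was beyond 1 in either direction on the log2 scale and its adjusted p-value was below 0.01 (edgeR quasi-likelihood F test, Benjamini-Hochberg adjustment). A positive interaction means that the change towards 14 DAF was more upward, or less downward, in TAM112, and a negative interaction that it was more upward, or less downward, in TAM111.

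There were 4 groups of 3 libraries each: TAM112 grains at 14 DAF, TAM112 grains at 5 DAF, TAM111 grains at 14 DAF and TAM111 grains at 5 DAF. Both cultivars are hard red winter wheats and were grown in the field without a further treatment named in the labels. Each library held poly-A RNA of several grains of similar size from 1 inflorescence, and the samples of highest quality were chosen for sequencing in each group, so the spread between libraries is that between chosen inflorescences. The grain was sampled whole, so a gene with fewer reads may be expressed less per cell or by a smaller part of the grain, and these cannot be told apart. Marker genes of endosperm, embryo or pericarp were not checked, because the table gives gene IDs without names.

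In early wheat grain the endosperm goes from nuclear division without cell walls to cellular tissue that divides and grows, and by mid grain filling its cells lay down starch and storage proteins while the pericarp stops growing. Much of the change is set at the level of transcription, by families such as NAC, Dof, MYB and the Nuclear Factor-Y complexes that bind the control regions of starch and storage protein genes. An interaction can take several forms, since a gene may change in one cultivar alone, by different amounts, or in opposite directions.

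The libraries held between 31916077 and 40464882 counts, and 1 count was worth between 0.0231 and 0.0362 CPM, the counts scaled to a common library total after TMM normalisation. The TMM factors, which correct for the make-up of a library, were 1.12 to 1.19 in TAM112 at 14 DAF and 0.767 to 0.872 in TAM111 at 14 DAF. Levels below are in CPM and are not divided by gene length, so they compare libraries for 1 gene and not genes with each other. Same-numbered libraries deviated together at 5 DAF, with correlations across genes of 0.365, 0.340 and 0.528 between the cultivars for replicates 1, 2 and 3, and in no other pair of groups for all 3 numbers. With the replicate number added as a block for the 5 DAF libraries only, 1923 genes passed, and they included all 201. With the block over all groups 105 genes passed, and 116 of the 201 lost their call, as did 26 of the 201 without the replicate 3 libraries of 5 DAF. Neither the labels nor the methods say what the number marks. In leave-one-out fits the count lay between 28, without replicate 2 of TAM112 at 14 DAF, and 963, without replicate 3 of the same group. It was 912 without replicate 3 of TAM112 at 5 DAF and 32 to 78 without any other single library. Across the 12 fits that each left out 1 library, 23 genes passed every time, 15 with a positive and 8 with a negative interaction, and 135 of the 201 passed in at most 3 of them. The p-values measure the spread between these samples.

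**Figure D1:**
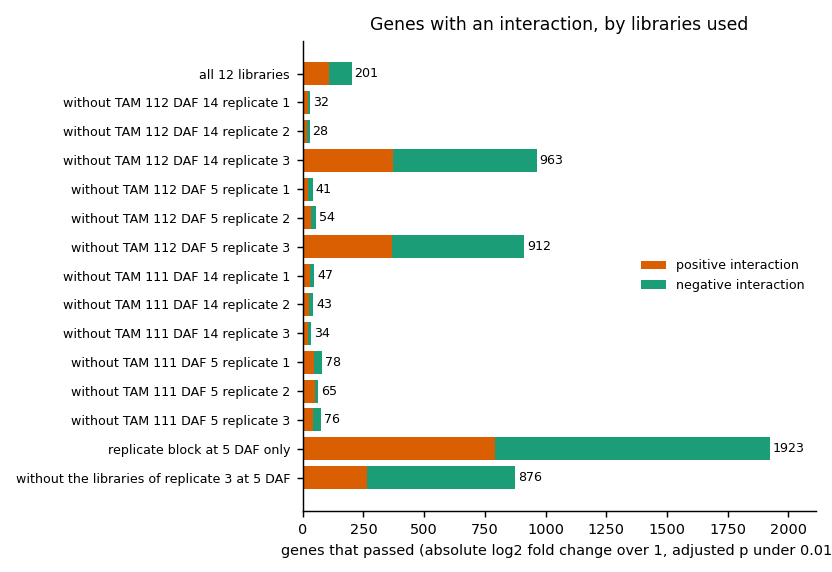
Number of genes with an interaction (x axis), split into positive and negative, for all 12 libraries, for each fit without 1 library, with the number taken as a block at 5 DAF, and without the replicate 3 libraries of 5 DAF. The bar for all 12 libraries stands at 201, the bars without 1 library stand at 28 to 78 for the other 10 libraries, and the bars without replicate 3 of TAM112 stand at 963 (14 DAF) and 912 (5 DAF).

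The interaction was positive for 109 genes (0.167% of those tested) and negative for 92 (0.141%). The cultivars changed in opposite directions for 92 of the 201 genes by the sign of the fitted changes, against 24.2% of all genes tested. In 9 genes the change had the same direction and was larger in TAM112, against 35.5% of all genes tested. In 100 genes it had the same direction and was larger in TAM111, with 48 lower and 52 higher at 14 DAF, against 40.3% of all genes tested. The absolute stage change was larger in TAM111 in 160 of the 201 genes (79.6%), where it was larger in 53.1% of all genes tested. The median absolute log2 stage change of the 201 genes was 0.82 in TAM112 and 2.44 in TAM111, while that of all genes tested was 0.68 in TAM112 and 0.73 in TAM111. These genes were thus mostly ones with a large change in TAM111 and a small one in TAM112. With library sizes alone and no TMM factors, the median log2 interaction of all genes tested moved by over 0.1 to 0.29, and 777 positive and 114 negative genes passed, of which 73.3% had the larger change in TAM111.

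The arms of the contrast were also tested by themselves with the same thresholds. The stage change passed in TAM112 only for 24 of the 201 genes, in TAM111 only for 121, in both for 49 and in neither for 7. Over all genes tested it passed for 21% in TAM112 and 24% in TAM111. Among the 49, the directions were opposite in 18 and the same in 31, and over all genes tested only 25 (0.0384%) passed in both cultivars in opposite directions. The libraries of the stages did not overlap in 139 of the 201 genes in TAM112 and in 194 in TAM111, against 55.2% and 56.1% of all genes tested. The cultivars did not overlap at 14 DAF in 190 of the 201 genes, against 55.9% of all genes tested, and at 5 DAF in 117, against 25.7%. All 201 genes were free of overlap between the cultivars in at least 1 stage, against 64.6% of all genes tested. They were 84 at 14 DAF only, 11 at 5 DAF only and 106 at both, against 38.9%, 8.68% and 17% of all genes tested. The 201 genes were chosen by a test on these same libraries, which favours groups that separate. These shares describe the genes and are not separate evidence for the interaction.

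**Figure D2:**
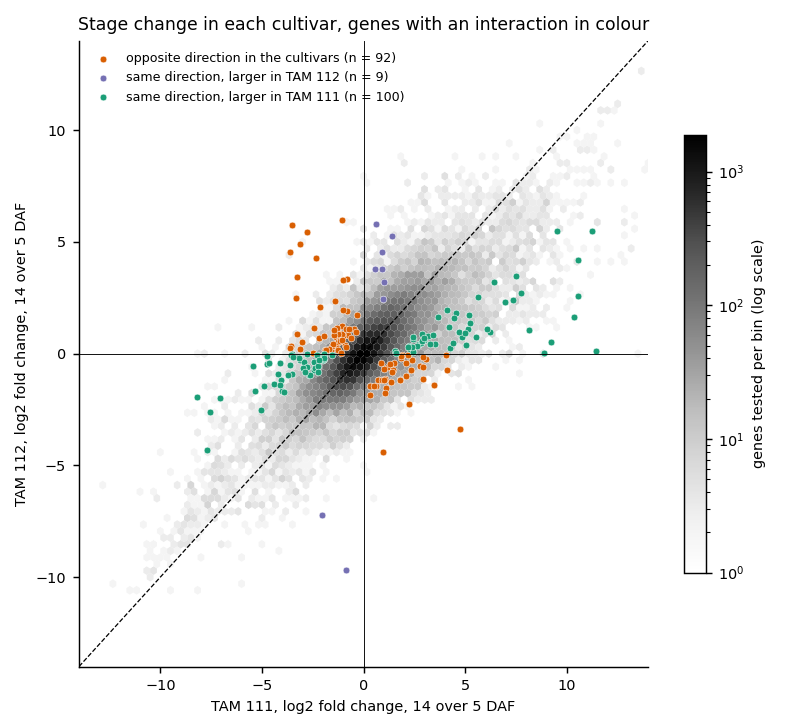
Log2 fold change of 14 over 5 DAF in TAM112 (y axis) and in TAM111 (x axis), with all genes tested in grey bins and the 201 genes with an interaction as points coloured by pattern. Most coloured points lie in a flat band where TAM112 changed little and TAM111 changed much, and 9 points of the same direction lie nearer the TAM112 axis.

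The gene with the smallest p-value among those with a positive interaction was TraesCS2A02G476500, on chromosome 2A at positions 716247998 to 716248874 of IWGSC RefSeq v1.0. Its level was 4.09, 7.39 and 5.73 CPM in TAM112 at 14 DAF and 0.0492, 0.168 and 0.0924 CPM in TAM112 at 5 DAF. In TAM111 it was 0.0702, 0.0362 and 0.105 CPM at 14 DAF and 0.738, 1.01 and 0.789 CPM at 5 DAF. The gene therefore rose 55.6-fold in TAM112 and fell at least 7.77-fold in TAM111, where no library of 14 DAF held more than 3 counts. The log2 interaction was 9.29 ± 0.635 (SE, n = 3 per group), with an adjusted p-value of 0.000161 in edgeR. The SE here and below is the absolute log2 interaction divided by the square root of its F statistic. The interaction and its SE depend on the prior count, because 1 group is at the floor of 3 counts. At 5 DAF the level was 8.20-fold lower in TAM112, so the order of the cultivars turned between the stages.

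A further pair of genes with an interaction lay beside it, and these neighbours were chosen after their values were seen. TraesCS2A02G476800 starts 93243 bases away and had 1.72, 3.37 and 1.50 CPM in TAM112 at 14 DAF against 0.0738, 0.112 and 0.0924 CPM at 5 DAF. In TAM111 the same gene had 0.105, 0 and 0.0351 CPM at 14 DAF against 0.431, 1.27 and 0.169 CPM at 5 DAF. TraesCS2A02G477000 starts a further 83533 bases along the chromosome and had 4.01, 7.97 and 4.23 CPM in TAM112 at 14 DAF against 0.148, 0.307 and 0.0924 CPM at 5 DAF. All 3 genes rose in TAM112 and fell in TAM111, with log2 interactions of 9.29, 8.15 and 8.01, and replicate 2 was the highest library of TAM112 at 14 DAF for each. The first passed in all 12 leave-one-out fits, while the second and the third passed in 3 each. The log2 interactions of TraesCS2A02G476500 and TraesCS2A02G476800 depend on the prior count, since TAM111 at 14 DAF was at the floor for both. How near-identical neighbours share reads was not tested, since the counting options for reads with several matches are not given in the sources used here.

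Another neighbouring pair, TraesCS2B02G500100 and TraesCS2B02G500300 on chromosome 2B, with starts 43634 bases apart, moved in the same way. TraesCS2B02G500100 had 6.14, 11.2 and 6.596 CPM in TAM112 at 14 DAF against 0.418, 0.531 and 1.25 CPM at 5 DAF, a 10.9-fold rise. In TAM111 it had 0.562, 0.0725 and 0.386 CPM at 14 DAF against 2.61, 5.01 and 2.51 CPM at 5 DAF, and it fell 9.93-fold. Its log2 interaction was 6.72 ± 0.792 (edgeR adjusted p = 0.00338). TraesCS2B02G500300, named after its values were seen, rose 46.4-fold in TAM112, with a log2 interaction of 8.20 ± 1.09, and its level in TAM111 was 7.08-fold lower at 14 DAF, a change that did not pass (edgeR adjusted p = 0.0127).

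The opposite pattern was clearest in genes that passed in each arm. TraesCS4A02G000500 (chromosome 4A, 207440 to 212052, 5 exons) had 2.60, 2.62 and 1.70 CPM in TAM112 at 14 DAF against 0.492, 0.475 and 0.647 CPM at 5 DAF. In TAM111 it had 1.83, 1.85 and 1.82 CPM at 14 DAF against 9.51, 6.28 and 8.85 CPM at 5 DAF. It rose 4.29-fold in TAM112 and fell 4.48-fold in TAM111, so that a 15.3-fold lower level in TAM112 at 5 DAF had closed to overlapping values at 14 DAF. The log2 interaction was 4.25 ± 0.351 (edgeR adjusted p = 0.000847).

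TraesCS2A02G384300 (chromosome 2A, 629104634 to 629110769, 13 exons) exchanged its levels between the cultivars. It stood at 27.3, 26.4 and 24.2 CPM in TAM112 at 14 DAF against 3.20, 6.06 and 6.03 CPM at 5 DAF, and at 9.13, 11.8 and 7.90 CPM in TAM111 at 14 DAF against 27.0, 30.1 and 18.6 CPM at 5 DAF. TraesCS2D02G111400 (chromosome 2D, 61979920 to 61984548, 9 exons) did so in the other sense and was the only one of the 8 named genes of this pattern with a negative interaction. It had 10.3, 12.7 and 28.7 CPM in TAM112 at 14 DAF against 63.0, 75.7 and 110.7 CPM at 5 DAF, and 64.9, 97.3 and 44.5 CPM in TAM111 at 14 DAF against 14.1, 13.1 and 15.98 CPM at 5 DAF. The fold was nearly equal in size, 4.82-fold down in TAM112 and 4.79-fold up in TAM111, and the groups did not overlap in either cultivar or stage. The log2 interaction was 3.74 ± 0.369 for TraesCS2A02G384300 and -4.53 ± 0.555 for TraesCS2D02G111400 (edgeR adjusted p = 0.00140 and 0.00406).

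The remaining named genes of opposite direction had positive interactions. TraesCS5D02G230700 had 3.31, 3.92 and 3.73 CPM in TAM112 at 14 DAF, 19.1-fold above its level at 5 DAF, and 0.140, 0.254 and 0.140 CPM in TAM111 at 14 DAF, 5.08-fold below its level at 5 DAF. TraesCS7D02G084800 had 6.16, 9.99 and 5.79 CPM in TAM112 at 14 DAF, a 5.70-fold rise, and 0.281, 0.217 and 0.246 CPM in TAM111 at 14 DAF, a 9.97-fold fall. TraesCS6B02G374000 rose 2.23-fold in TAM112, where replicate 3 at 14 DAF (10.2 CPM) lay within the range of 5 DAF (7.05 to 11.6 CPM), and fell 5.40-fold in TAM111. Their log2 interactions were 6.59 ± 0.673, 5.80 ± 0.678 and 3.59 ± 0.436. TraesCS5D02G230700 passed in all 12 leave-one-out fits, TraesCS7D02G084800 in 7 and TraesCS6B02G374000 in 6, while TraesCS2B02G500100 passed in 8 and TraesCS2D02G111400 in 6.

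In a second set of positive genes the level fell in TAM111 and fell less, or did not pass, in TAM112. TraesCS7A02G536600 (chromosome 7A, 713855093 to 713882676) stood at 7.16, 6.77 and 10.8 CPM in TAM112 and at 0.526, 0.580 and 0.597 CPM in TAM111 at 14 DAF. Its levels overlapped at 5 DAF, with 22.4, 27.0 and 29.7 CPM in TAM112 and 24.0, 19.0 and 27.2 CPM in TAM111. It thus fell 3.20-fold in TAM112 and 41.2-fold in TAM111, with a log2 interaction of 3.68 ± 0.317 (edgeR adjusted p = 0.000847).

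TraesCS2B02G034200 (chromosome 2B, 16813613 to 16816571, 14 exons) had 62.6, 63.9 and 35.1 CPM in TAM112 at 14 DAF against 63.6, 75.7 and 81.3 CPM at 5 DAF, and these groups overlapped. In TAM111 it had 0.246, 0.362 and 0.456 CPM at 14 DAF against 8.18, 9.42 and 11.1 CPM at 5 DAF, a 26.9-fold fall. The level in TAM112 was 152-fold higher at 14 DAF and 7.69-fold higher at 5 DAF, so a gap between the cultivars was already present at the earlier stage. The log2 interaction was 4.29 ± 0.384.

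TraesCS7A02G339400 (chromosome 7A, 497276479 to 497279984) was steady in TAM112, with 17.2, 15.4 and 14.3 CPM at 14 DAF against 13.3, 15.3 and 12.2 CPM at 5 DAF. It fell 8.72-fold in TAM111, to 1.12, 0.544 and 0.948 CPM at 14 DAF, against 7.69, 7.67 and 7.44 CPM at 5 DAF. TraesCSU02G028200, a gene of 1 exon on the unplaced scaffolds, had 33.8, 38.4 and 34.9 CPM in TAM112 at 14 DAF and 10.1, 10.8 and 10.3 CPM in TAM111 at 14 DAF, with overlapping cultivars at 5 DAF. Its stage change in TAM111 was a 5.39-fold fall, that in TAM112 did not pass (edgeR adjusted p = 0.0531), and its log2 interaction of 2.07 ± 0.200 was the smallest of the 8 positive genes chosen by p-value.

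Of this set, both genes of chromosome 1A started lower in TAM112 at 5 DAF and ended higher in TAM112 at 14 DAF. TraesCS1A02G350800 had 11.9, 11.7 and 10.6 CPM in TAM112 at 14 DAF against 12.2, 13.8 and 9.03 CPM at 5 DAF, while in TAM111 it had 2.60, 3.08 and 2.18 CPM at 14 DAF against 26.3, 25.8 and 39.4 CPM at 5 DAF. TraesCS1A02G059100 had 3.83, 4.33 and 4.73 CPM in TAM112 at 14 DAF against 4.75, 5.31 and 8.90 CPM at 5 DAF, and it fell 43.8-fold in TAM111, to 0.772, 0.652 and 0.561 CPM at 14 DAF, against 18.9, 25.6 and 42.6 CPM at 5 DAF. Their log2 interactions were 3.503 ± 0.308 and 4.89 ± 0.465 (edgeR adjusted p = 0.000847 and 0.00119).

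Among the genes with a negative interaction, the smallest p-value of all 65080 tests belonged to TraesCS1D02G300200 (chromosome 1D, 398456323 to 398459823, 4 exons). It had 18.0, 17.3 and 16.6 CPM in TAM112 at 14 DAF against 18.3, 15.9 and 13.8 CPM at 5 DAF, and these groups overlapped. In TAM111 it had 10.003, 9.68 and 9.72 CPM at 14 DAF, against 0 counts in each of the 3 libraries of 5 DAF. The gene rose at least 106-fold in TAM111, and at 5 DAF its level was at least 173-fold higher in TAM112. The fitted log2 interaction of -11.33 ± 0.411 (edgeR adjusted p = 5.56e-06) depends on the prior count, as does its SE. It gives no bound, and the SE does not measure how precisely the interaction is known.

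TraesCS3D02G545300 (chromosome 3D, 614883319 to 614884674, 1 exon) had 1.13, 0.482 and 1.03 CPM in TAM112 at 14 DAF against 0.517, 1.09 and 0.994 CPM at 5 DAF, and the stages overlapped. In TAM111 it had 7.90, 10.9 and 14.2 CPM at 14 DAF against 0.0308, 0.0296 and 0 CPM, or at most 1 count, at 5 DAF. The gene rose at least 119-fold in TAM111. The log2 interaction was -8.86 ± 0.757, a fitted value that depends on the prior count because TAM111 at 5 DAF was at the floor.

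TraesCS6A02G260500 (chromosome 6A, 484039002 to 484039682, 1 exon) rose in each cultivar. It had 14.4, 8.43 and 9.82 CPM in TAM112 at 14 DAF against 0.197, 0.363 and 0.162 CPM at 5 DAF, and 108, 100.3 and 107 CPM in TAM111 at 14 DAF against 0.0308, 0.0592 and 0.0282 CPM at 5 DAF. The rise was 45.2-fold in TAM112 and at least 1138-fold in TAM111, and the log2 interaction was -5.75 ± 0.543. This fitted value also depends on the prior count, since TAM111 at 5 DAF was at the floor. TraesCS5D02G498500 and TraesCS4B02G211700 showed the same form at lower levels. The level of TraesCS5D02G498500 was 4.77, 2.50 and 3.09 CPM in TAM112 at 14 DAF and 23.3, 19.4 and 15.7 CPM in TAM111 at 14 DAF, 6.58-fold and 218-fold above 5 DAF. That of TraesCS4B02G211700 was 3.42, 4.09 and 4.04 CPM in TAM112 at 14 DAF and 14.3, 21.1 and 16.7 CPM in TAM111 at 14 DAF, 3.35-fold and 37.0-fold above 5 DAF. At 5 DAF each of these 3 genes was higher in TAM112, by at least 2.61-fold, by 5.87-fold and by 2.449-fold, so the cultivar that rose less had started higher.

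TraesCS1B02G181800 (chromosome 1B, 328820458 to 328826535, 30 exons) differed at 5 DAF alone. Its levels were 77.5, 73.1 and 91.2 CPM in TAM112 and 72.5, 96.4 and 69.4 CPM in TAM111 at 14 DAF, with overlapping cultivars. At 5 DAF it was 49.9, 62.0 and 66.3 CPM in TAM112 and 6.18, 6.25 and 8.60 CPM in TAM111. It rose 11.3-fold in TAM111 and the change in TAM112 did not pass (edgeR adjusted p = 0.0821), for a log2 interaction of -3.06 ± 0.278.

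TraesCS7A02G140900 and TraesCS1B02G203200 were instead within 1.67-fold between the cultivars at 5 DAF, though without overlap, and 3.13-fold and 5.99-fold lower in TAM112 at 14 DAF. TraesCS7A02G140900 had 5.50, 5.66 and 6.21 CPM in TAM112 and 17.1, 18.2 and 19.1 CPM in TAM111 at 14 DAF, and 6.92, 5.78 and 7.44 CPM in TAM112 and 4.61, 5.48 and 5.07 CPM in TAM111 at 5 DAF. TraesCS1B02G203200 had 1.53, 1.54 and 1.84 CPM in TAM112 and 9.93, 9.89 and 9.62 CPM in TAM111 at 14 DAF, and 1.60, 1.84 and 2.36 CPM in TAM112 and 1.51, 1.21 and 0.761 CPM in TAM111 at 5 DAF. The rise in TAM111 was 3.58-fold and 8.45-fold, no change passed in TAM112, and the log2 interactions were -2.06 ± 0.206 and -3.32 ± 0.348. The 16 genes named by p-value passed in each of the 12 leave-one-out fits, and 12 of them passed with limma-voom, where TraesCS3D02G545300, TraesCS6A02G260500, TraesCS4B02G211700 and TraesCS5D02G498500 lost their call. They were chosen for small p-values in these same libraries, so passing in the leave-one-out fits is not separate evidence.

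**Figure D3:**
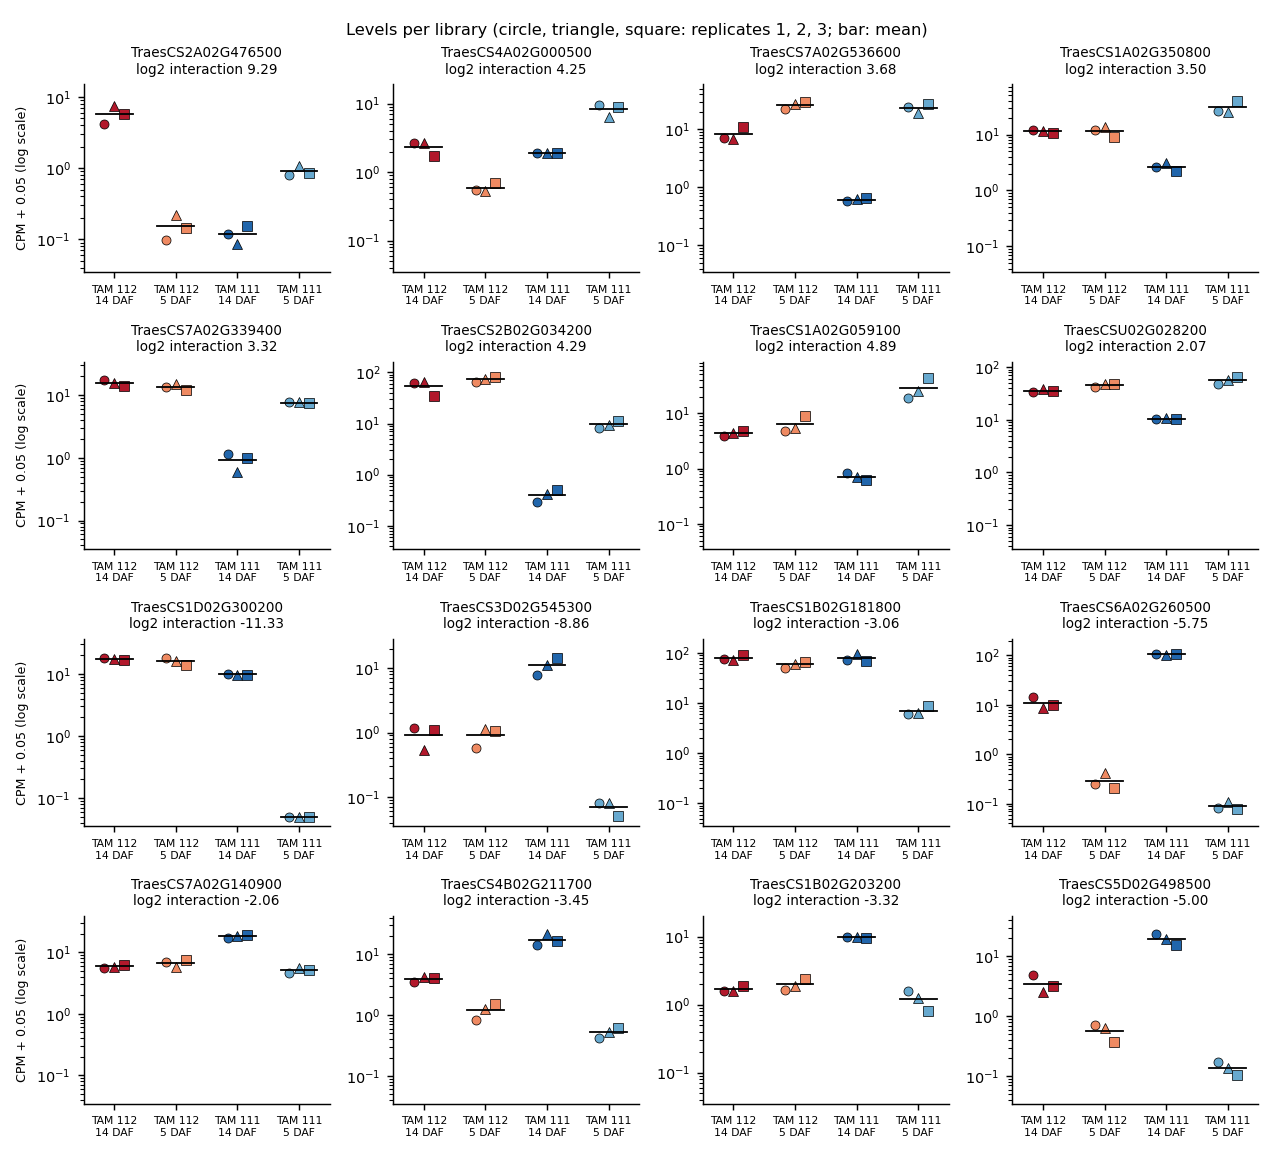
Level per library (y axis, CPM plus 0.05, log scale) in the 4 groups for the 8 genes with the smallest p-value in each direction; points are libraries and the bar is the mean of 3. The positive genes in the upper rows are mostly level in TAM112 and lower at 14 DAF in TAM111, and the negative genes in the lower rows are higher at 14 DAF in TAM111, by 3.58-fold or more.

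The median of the highest group mean was 21.9 CPM for the 201 genes, against 6.08 CPM for all genes tested. The median SE of the interaction was 0.348 against 0.413. The test passes genes with many reads and a small SE more readily, so these values are not a trait of genes with an interaction. The highest group mean CPM of a gene with a positive interaction, not divided by gene length, was that of TraesCS5D02G531400. This gene had 368, 383 and 274 CPM in TAM112 at 14 DAF against 448, 645 and 492 CPM at 5 DAF. In TAM111 it had 37.3, 61.0 and 48.6 CPM at 14 DAF against 424, 367 and 371 CPM at 5 DAF, a 7.90-fold fall, and its log2 interaction was 2.35 ± 0.330. Its span overlaps another feature on the opposite strand, and whether strand was used in counting is not given in the sources used here, so reads of the pair cannot be told apart.

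TraesCS4D02G118900 and TraesCS2D02G033100 fell 2.97-fold and 3.65-fold in TAM111 and did not pass in TAM112. At 14 DAF TraesCS4D02G118900 had 279, 346 and 258 CPM in TAM112 and 144, 155 and 178 CPM in TAM111. TraesCS2D02G033100 had 241, 358 and 249 CPM in TAM112 and 106, 91.7 and 91.4 CPM in TAM111 at that stage. TraesCS1B02G354000 was much lower in TAM112 at each stage, with 7.77, 8.67 and 8.18 CPM in TAM112 and 109, 101 and 104 CPM in TAM111 at 14 DAF, and 5.56, 7.01 and 6.89 CPM in TAM112 and 272, 267 and 273 CPM in TAM111 at 5 DAF. Only its fall of 2.59-fold in TAM111 passed, and the log2 interactions of the 3 genes were 1.90 ± 0.287, 2.03 ± 0.312 and 1.71 ± 0.200.

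On the negative side, TraesCSU02G057800, TraesCS6A02G371100 and TraesCS3A02G497200 rose 7.82-fold, 5.15-fold and 9.07-fold in TAM111, and none of them passed in TAM112. At 14 DAF TraesCSU02G057800 had 49.2, 56.6 and 60.3 CPM in TAM112 and 362, 564 and 382 CPM in TAM111. TraesCS6A02G371100 had 62.0, 65.9 and 108 CPM in TAM112, where replicate 3 stood apart, and 291, 399.5 and 325 CPM in TAM111. TraesCS3A02G497200 had 40.5, 49.1 and 52.4 CPM in TAM112 and 270.2, 395 and 244 CPM in TAM111. The log2 interactions were -2.28 ± 0.349, -2.06 ± 0.309 and -2.39 ± 0.340.

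TraesCS2B02G491100 differed from these in that it rose in each cultivar and was higher in TAM112 throughout. It had 285, 301 and 259 CPM in TAM112 and 29.5, 26.0 and 27.4 CPM in TAM111 at 14 DAF, and 78.2, 108 and 55.5 CPM in TAM112 and 1.08, 1.57 and 0.874 CPM in TAM111 at 5 DAF. The rise was 3.499-fold in TAM112 and 23.6-fold in TAM111, and the log2 interaction was -2.75 ± 0.358. Of the 8 genes chosen by highest CPM, TraesCS1B02G354000 passed in 7 leave-one-out fits, TraesCS2B02G491100 in 4 and the other 6 in 2 each. The genes chosen by p-value were further from the threshold by that choice, so these counts do not compare the stability of the sets.

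Close to the threshold, TraesCS6D02G018500 and TraesCS6D02G047200 lay just inside, with log2 interactions of -3.08 and 2.54 (edgeR adjusted p = 0.00992 for both). TraesCS2D02G398300 and TraesCS3D02G433800 lay just outside, with -1.90 and 1.66 (edgeR adjusted p = 0.0101 for both). TraesCS2D02G398300 had 15.8, 17.2 and 21.96 CPM in TAM112 and 54.0, 63.7 and 65.7 CPM in TAM111 at 14 DAF, and overlapping cultivars at 5 DAF, a form like that of the genes inside.

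A group at the floor, with at most 3 counts in every library, was found in 13 of the 201 genes, against 8.23% of all genes tested. TAM112 at 14 DAF was that group in 2 genes, TAM111 at 14 DAF in 3 and TAM111 at 5 DAF in 8. With these genes set to the floor, the median log2 interaction was 2.52 for the 109 positive genes and -2.85 for the 92 negative genes, and that of all genes tested was -0.02. Another feature overlapped the span of 8 genes (3.98%), against 4.4% of all genes tested. The median gene had 1593 bases of exon and 4 exons, against 1617 bases and 5 exons over all genes tested.

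The genes lay on all chromosomes, with 64 in the A, 69 in the B and 66 in the D subgenome and 2 on unplaced scaffolds. These were 0.3%, 0.324% and 0.306% of the genes tested in the A, B and D subgenomes, near the 0.309% of all genes tested. Chromosome 2B held the most, 22 genes or 0.628% of those tested there, and 3A and 5A the fewest, 3 each. Pairs of neighbours within 1e+06 bases were 10, and in 4 of them the signs were opposite. How often genes tested lie this close was not counted. One such pair, TraesCS2B02G047300 and TraesCS2B02G047400, named after their values were seen, has starts 4462 bases apart. TraesCS2B02G047300 had 35.5, 44.1 and 28.8 CPM in TAM112 and 16.4, 13.7 and 15.8 CPM in TAM111 at 14 DAF, and fell 2.09-fold in TAM111. TraesCS2B02G047400, on the other strand, had 6.23, 6.45 and 5.79 CPM in TAM112 and 16.004, 16.3 and 16.3 CPM in TAM111 at 14 DAF, and rose 5.87-fold in TAM112 and 49.2-fold in TAM111. The log2 interactions were 1.68 ± 0.259 and -3.07 ± 0.387.

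The only genes for which the sources give a role are 34 transcription factors that the study picked by their place in networks of these cultivars, so their behaviour in these samples is not independent evidence. All 34 were tested and 0 passed in edgeR, while 21 had an unadjusted p-value under 0.05, against 23.3% of all genes tested, and 8 an adjusted p-value under 0.05, against 4.59%. DESeq2 called 7 of them, against 4.98% of all genes tested, and limma-voom 0. The interaction was below 0 for 30 of the 34, against 51.3% of all genes tested, and the median log2 interaction was -3.67, or -3.66 with groups at the floor set to it. Of the 14 listed for the TAM112 network, 11 were below 0 with a median of -2.29 (9 and -0.97 with groups set to the floor), and of the 19 listed for the TAM111 network, 18 were below 0 with a median of -4.04 (18 and -3.87).

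Replicate 3 stood apart for these factors at 5 DAF. It was below the mean of replicates 1 and 2 for 30 of the 34 in TAM112 (median log2 ratio -2.87) and for 27 in TAM111 (median -2.58), against 51.9% and 49.4% of all genes tested. For the 201 genes with an interaction the shares were 47.8% and 45.3%, near those of all genes. These genes were chosen by a test that favours a small spread between replicates. The shares therefore cannot show whether replicate 3 shaped the list. With the replicate number as a block at 5 DAF, 16 of the 34 passed, 15 with a negative interaction and 1 with a positive one, against 2.95% of all genes tested. Without the replicate 3 libraries of 5 DAF, 15 passed, against 1.32% of all genes tested, and all 15 were negative. With the planned block over all groups, 0 of the 34 passed, where 105 of the 65080 genes tested did. At 14 DAF replicate 3 lay above replicates 1 and 2 in TAM112 (median log2 ratio 0.78) and near them in TAM111 (-0.15). The block at 5 DAF and the fit without the replicate 3 libraries of 5 DAF were added after the data were seen. The part of replicate 3 in the result beyond these settings was not tested.

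**Figure D4:**
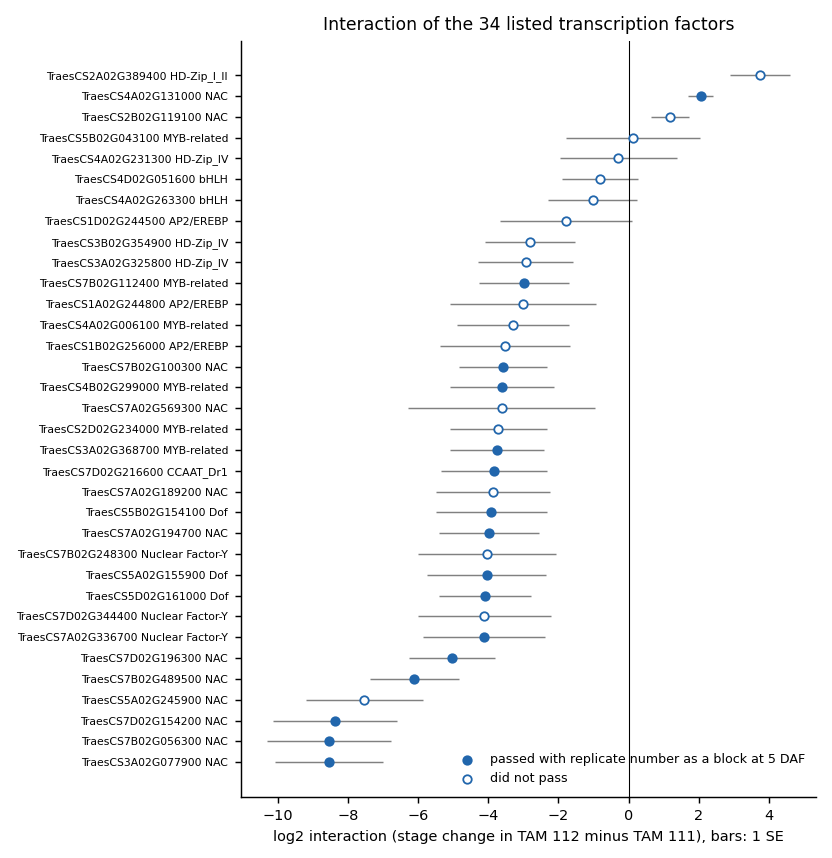
Log2 interaction (x axis) of the 34 listed transcription factors with 1 SE, derived from the F statistic of the fit to all 12 libraries, ordered by size; filled points passed with the number as a block at 5 DAF. The points of 30 factors lie below 0, and the filled points are 15 of these and the NAC factor TraesCS4A02G131000 at 2.06. With the block over all groups 0 of the 34 passed.

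The Nuclear Factor-Y genes encode subunits of a complex that binds CCAAT boxes, and in rice endosperm related subunits act on starch synthesis genes. The homeologs TraesCS7A02G336700, TraesCS7B02G248300 and TraesCS7D02G344400 had nearly equal log2 interactions, -4.12 ± 1.74, -4.04 ± 1.96 and -4.11 ± 1.89. TraesCS7A02G336700 had 29.9, 34.2 and 105 CPM in TAM112 and 463, 639 and 451 CPM in TAM111 at 14 DAF, a separation of the cultivars with no overlap. At 5 DAF it had 70.2, 112.3 and 4.23 CPM in TAM112 and 44.0, 54.9 and 0.282 CPM in TAM111, so replicate 3 was the lowest library in each. The level at 14 DAF was 1.11-fold lower than at 5 DAF in TAM112 and 15.7-fold higher in TAM111, and neither change passed.

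TraesCS7B02G248300 had 40.5, 41.2 and 110.7 CPM in TAM112 and 499, 641 and 484 CPM in TAM111 at 14 DAF, against 87.6, 149 and 3.70 CPM in TAM112 and 55.3, 67.5 and 0 CPM in TAM111 at 5 DAF. TraesCS7D02G344400 had 16.1, 19.0 and 64.2 CPM in TAM112 and 237, 346 and 246 CPM in TAM111 at 14 DAF, against 47.6, 76.3 and 1.87 CPM in TAM112 and 28.7, 32.2 and 0 CPM in TAM111 at 5 DAF. Replicate 3 of TAM112 was the highest of its group at 14 DAF and the lowest at 5 DAF for all 3 homeologs. The edgeR adjusted p-values were 0.180, 0.240 and 0.216. With the replicate number as a block at 5 DAF they were 0.0068, 0.013 and 0.0123, so that only TraesCS7A02G336700 passed. Without the replicate 3 libraries of 5 DAF they were 0.00856, 0.00537 and 0.0108, and both TraesCS7A02G336700 and TraesCS7B02G248300 passed. TraesCS7D02G216600, listed as CCAAT_Dr1, had 8.38, 5.30 and 15.8 CPM in TAM112 and 72.9, 86.1 and 68.5 CPM in TAM111 at 14 DAF, and a log2 interaction of -3.83 ± 1.50 (edgeR adjusted p = 0.150, and 0.0041 with the block).

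Dof proteins are plant zinc finger factors, some of which bind the promoters of storage protein genes in cereal endosperm. The homeologs TraesCS5A02G155900, TraesCS5B02G154100 and TraesCS5D02G161000 had log2 interactions of -4.04 ± 1.69, -3.92 ± 1.59 and -4.09 ± 1.32. TraesCS5D02G161000 had 7.44, 5.49 and 16.8 CPM in TAM112 and 107, 134 and 108 CPM in TAM111 at 14 DAF, against 16.3, 22.4 and 2.20 CPM in TAM112 and 11.97, 15.8 and 0.451 CPM in TAM111 at 5 DAF. Its level was 1.38-fold lower at 14 DAF in TAM112 and 12.4-fold higher in TAM111. The level of TraesCS5A02G155900 was 1.21-fold lower in TAM112 and 13.6-fold higher in TAM111, and that of TraesCS5B02G154100 1.09-fold and 16.5-fold higher. None of these stage changes passed in either cultivar. The edgeR adjusted p-values of the 3 interactions were 0.176, 0.163 and 0.0913, and all 3 passed with the block at 5 DAF, at 0.0040, 0.0041 and 0.0027.

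NAC factors form a large plant family, members of which act in senescence, stress and endosperm filling. Of 12 listed NAC genes, 10 were below 0. With the block at 5 DAF 8 of the 12 passed, including TraesCS4A02G131000, which was above 0. Of these, TraesCS3A02G077900, TraesCS7B02G056300 and TraesCS7D02G154200 each had 0 counts in all 3 libraries of TAM111 at 5 DAF, so that their fitted interactions depend on the prior count. TraesCS3A02G077900 had 1.75, 1.11 and 1.36 CPM in TAM112 and 13.9, 18.2 and 13.2 CPM in TAM111 at 14 DAF, while TAM112 at 5 DAF had 0.0985, 0.279 and 0 CPM. It rose 11.2-fold in TAM112 and at least 164-fold in TAM111. The log2 interaction was -8.54 ± 1.55 (edgeR adjusted p = 0.0196, and 0.0024 with the block).

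TraesCS7B02G056300 had 3.19, 2.22 and 3.92 CPM in TAM112 and 26.6, 27.1 and 17.7 CPM in TAM111 at 14 DAF, a rise of 18.6-fold in TAM112 and at least 258-fold in TAM111. TraesCS7D02G154200 had 5.45, 3.88 and 7.29 CPM in TAM112 and 41.0, 45.3 and 30.3 CPM in TAM111 at 14 DAF, a rise of 32.1-fold in TAM112 and at least 421-fold in TAM111. TraesCS5A02G245900 had 3.16, 5.20 and 16.6 CPM in TAM112 and 63.5, 86.3 and 72.4 CPM in TAM111 at 14 DAF, a rise of 16.8-fold in TAM112 and at least 803-fold in TAM111, and its interaction did not pass (edgeR adjusted p = 0.0298, 0.0138 with the block and 0.0117 without the replicate 3 libraries of 5 DAF). These genes were thus on the way up in both cultivars, with more at 14 DAF in TAM111. TraesCS7B02G489500 had 5.03, 4.50 and 8.79 CPM in TAM112 and 41.8, 48.2 and 36.5 CPM in TAM111 at 14 DAF, and TraesCS7D02G196300 had 7.49, 5.63 and 14.1 CPM in TAM112 and 44.0, 51.2 and 38.6 CPM in TAM111. The log2 interactions of these last 2 genes were -6.11 ± 1.27 and -5.02 ± 1.22 (edgeR adjusted p = 0.0240 and 0.0389, and 0.0021 and 0.0020 with the block).

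The smallest adjusted p-value of the list belonged to a NAC gene of the other sign. TraesCS4A02G131000 had 27.1, 28.6 and 16.6 CPM in TAM112 and 42.4, 32.6 and 35.1 CPM in TAM111 at 14 DAF, against 0.615, 0.475 and 0.323 CPM in TAM112 and 3.29, 3.11 and 2.62 CPM in TAM111 at 5 DAF. The cultivars did not overlap at either stage, and the gap narrowed, since the level in TAM112 was 1.52-fold lower at 14 DAF and 6.38-fold lower at 5 DAF. The rise was 51.1-fold in TAM112 and 12.2-fold in TAM111, with a log2 interaction of 2.06 ± 0.356 (edgeR adjusted p = 0.0137, 0.0053 with the block and 0.0154 without the replicate 3 libraries of 5 DAF). TraesCS2B02G119100 was the other NAC gene above 0, at 1.17 ± 0.544, with 26.0, 33.8 and 17.3 CPM in TAM112 and 11.8, 12.6 and 12.1 CPM in TAM111 at 14 DAF. The other 4 NAC genes had log2 interactions of -3.57 (TraesCS7B02G100300), -3.98 (TraesCS7A02G194700), -3.86 (TraesCS7A02G189200) and -3.62 (TraesCS7A02G569300).

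**Figure D5:**
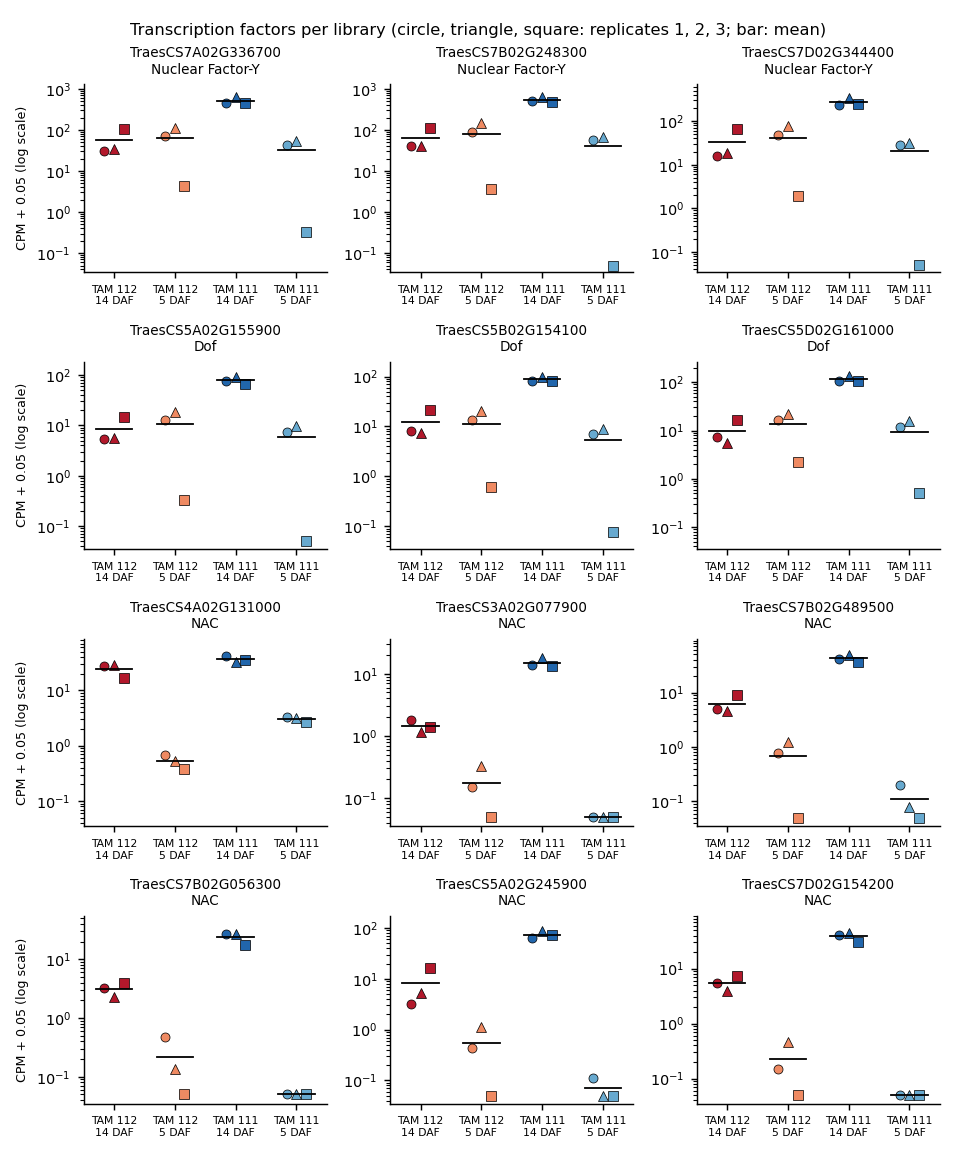
Level per library (y axis, CPM plus 0.05, log scale) in the 4 groups for the Nuclear Factor-Y and Dof homeologs and the 6 NAC genes with the smallest p-value; points are libraries, squares are replicate 3, and the bar is the mean of 3. TAM111 at 14 DAF is the highest group in all 12 panels, and replicate 3 of 5 DAF lies far below replicates 1 and 2 in the Nuclear Factor-Y and Dof panels.

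HD-Zip factors join a homeodomain to a leucine zipper and act in development and in responses to drought and abscisic acid. TaHDZ7A (TraesCS2A02G389400) had the largest positive value of the list, 3.74 ± 0.866 (edgeR adjusted p = 0.0335, and 0.0321 with the block). It had 7.84, 13.7 and 6.15 CPM in TAM112 and 1.33, 0.870 and 0.667 CPM in TAM111 at 14 DAF, against 0.0246, 0.140 and 0.0924 CPM in TAM112 and 0.215, 0.0592 and 0.0846 CPM in TAM111 at 5 DAF. The rise was 108-fold in TAM112 and 7.99-fold in TAM111.

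TaHDZ29A (TraesCS3A02G325800) and TaHDZ29B (TraesCS3B02G354900) were lower in TAM112 at 14 DAF, with negative interactions of -2.94 ± 1.36 and -2.80 ± 1.28. TaHDZ29A had 1.28, 0.313 and 11.9 CPM in TAM112 and 30.0, 68.6 and 32.1 CPM in TAM111 at 14 DAF, against 65.1, 64.6 and 28.0 CPM in TAM112 and 105, 79.1 and 16.4 CPM in TAM111 at 5 DAF. Its level at 14 DAF was 11.7-fold lower than at 5 DAF in TAM112 and 1.53-fold lower in TAM111, and neither passed, nor did either interaction with the block (edgeR adjusted p = 0.117 and 0.120). The span of TaHDZ29A overlaps another feature. TaHDZ30A (TraesCS4A02G231300) fell at least 210.3-fold in TAM112 and at least 256-fold in TAM111, and its log2 interaction of -0.29 ± 1.65 changed sign with the block.

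DREB proteins bind the dehydration-responsive element in promoters of stress genes. The 3 homeologs listed as TaDREB5, TraesCS1A02G244800, TraesCS1B02G256000 and TraesCS1D02G244500, had at most 2 counts in any library of 5 DAF. TraesCS1B02G256000 had 6.97, 7.75 and 4.65 CPM in TAM112 and 9.83, 11.3 and 17.8 CPM in TAM111 at 14 DAF. All 3 rose in both cultivars, by at least 54.9-fold in TAM112 and at least 115-fold in TAM111, and the interaction did not pass for any (edgeR adjusted p = 0.425, 0.286 and 0.620). At 14 DAF their levels in TAM112 were 2.39-fold, 2.01-fold and 2.27-fold lower.

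Of the 6 MYB-related genes, 5 were below 0, from -3.75 to -2.97 (TraesCS7B02G112400), and 3 passed with the block. TraesCS3A02G368700 had 0.732, 0.265 and 0.835 CPM in TAM112 and 16.8, 17.8 and 25.5 CPM in TAM111 at 14 DAF, a level 32.9-fold lower in TAM112, and its interaction was -3.75 ± 1.35. TraesCS5B02G043100 was the exception at 0.13 ± 1.92, with 7.49, 5.66 and 7.74 CPM in TAM112 at 14 DAF against 12.4, 8.58 and 7.83 CPM at 5 DAF. Its libraries of TAM111 disagreed, with 10.7, 0.0362 and 0 CPM at 14 DAF against 10.03, 6.16 and 0.0282 CPM at 5 DAF. The bHLH genes TraesCS4A02G263300 and TraesCS4D02G051600 fell in each cultivar. TraesCS4D02G051600 fell 89.4-fold in TAM112 and 47.9-fold in TAM111, and the interactions of -1.03 ± 1.28 and -0.81 ± 1.09 did not pass (edgeR adjusted p = 0.685 and 0.708).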

How the data were processed

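RNA of 12 grain samples was sequenced from poly-A selected, directional libraries. The deposited values are whole-number read counts per annotated feature, which the authors made with featureCounts of Subread after trimming with Cutadapt and Trimmomatic and mapping with HISAT2 to IWGSC RefSeq v1.0 with its v1.1 annotation. The strand and multiple-mapping options of the counting are not given in the sources used here. The table held 120744 features, of which 32172 had no count in any library, and libraries were grouped by the cultivar and stage in their labels. Features were kept with filterByExpr, which left 65080 with 99.8% to 99.9% of each library's counts. Scaling used TMM factors, and the model had 1 term for each of the 4 groups over all 12 libraries, fitted with edgeR 4.0.16 in R 4.3.3 (glmQLFit and glmQLFTest), with a common biological coefficient of variation of 0.3. The study's log2 fold change and adjusted p-value limits (1 and 0.01) were kept, with Benjamini-Hochberg adjustment over all features tested. The study applied them to fold changes corrected with ashr and p-values corrected with IHW. Neither was used here, so the same limits do not make the same criterion. Replicate libraries of a group differed by more than sampling noise, so none was counted as a repeat of another.

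Genes were named by rule as the 8 with the smallest p-value in each direction, the 4 with the highest mean CPM in each direction, up to 8 with opposite stage changes that both passed, the 2 genes on each side of the threshold, and of 34 listed transcription factors the 6 with the smallest p-value. Other factors of that list were named after their values were seen. Members and lists were chosen with earlier results of these data known. A group with at most 3 counts in every library was set to that floor, and folds against it are lower bounds. The script was tested on simulated data. Same-numbered libraries of TAM112 and TAM111 at 5 DAF deviated together (all 3 correlations over 0.1), and the labels do not say what a number marks. Those of every other pair of groups did not (-0.283 to 0.107), so the block was added at 5 DAF only. Alternatives were DESeq2 1.42.0, limma-voom (limma 3.58.1), glmTreat, other scaling and filters, other thresholds, each library left out, and the replicate block. Gene names were not used, because 0 IDs of the table matched the reference table given. Counting error and biological spread limit the precision of genes with few counts. The SE of an interaction was derived from its F statistic and is not a separate estimate of error. Where a group was at the floor, the SE depends on the prior count.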

Additional observations from a re-analysis of the deposited data

Results flagged for a closer look

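In the fit to all 12 libraries the change over development differed between TAM112 and TAM111, by the test of the difference itself, for 32 genes. These are the genes of the naming rule that passed, and the log2 interaction of each follows. Some passed in only 2 of the 12 leave-one-out fits, TraesCS6D02G018500 and TraesCS5D02G531400 among them. TraesCS4D02G118900, TraesCS6A02G371100 and TraesCS6D02G047200 lost their call without the replicate 3 libraries of 5 DAF. The values of TraesCS2A02G476500, TraesCS1D02G300200, TraesCS3D02G545300 and TraesCS6A02G260500 depend on the prior count. Among the positive genes with the smallest p-values it was 9.289 for TraesCS2A02G476500, 4.252 for TraesCS4A02G000500, 3.678 for TraesCS7A02G536600, 3.503 for TraesCS1A02G350800, 3.318 for TraesCS7A02G339400, 4.29 for TraesCS2B02G034200, 4.889 for TraesCS1A02G059100 and 2.069 for TraesCSU02G028200. Among the negative genes with the smallest p-values it was -11.33 for TraesCS1D02G300200, -8.865 for TraesCS3D02G545300, -3.062 for TraesCS1B02G181800, -5.755 for TraesCS6A02G260500, -2.056 for TraesCS7A02G140900, -3.455 for TraesCS4B02G211700, -3.321 for TraesCS1B02G203200 and -5.004 for TraesCS5D02G498500.

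For the genes chosen by highest CPM it was 2.353 for TraesCS5D02G531400, 1.901 for TraesCS4D02G118900, 2.035 for TraesCS2D02G033100, 1.711 for TraesCS1B02G354000, -2.28 for TraesCSU02G057800, -2.062 for TraesCS6A02G371100, -2.393 for TraesCS3A02G497200 and -2.748 for TraesCS2B02G491100. For the further genes of opposite direction it was 3.739 for TraesCS2A02G384300, 6.585 for TraesCS5D02G230700, 5.801 for TraesCS7D02G084800, 6.72 for TraesCS2B02G500100, 3.588 for TraesCS6B02G374000 and -4.529 for TraesCS2D02G111400, and just inside the threshold it was -3.076 for TraesCS6D02G018500 and 2.538 for TraesCS6D02G047200.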

How the results depend on the processing

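The number of genes with an interaction moved with the tool, the filter and the threshold. Against 201, it was 3239 with DESeq2, 17 with glmTreat, 891 with library sizes alone, 413 with no filter, 561 with at least 10 counts in every library and 2986 at an adjusted p-value under 0.05. DESeq2 called all 201 genes and limma-voom 117 of them. The share of positive genes, 54.2%, was 70.6% with glmTreat, 62.5% with upper-quartile factors, 87.2% with library sizes alone, 49.6% with DESeq2 and 47.6% at an adjusted p-value under 0.05. The share with the larger stage change in TAM111, 79.6%, was 69.9% with DESeq2, 84.7% with limma-voom, 73.3% with library sizes alone and 70.0% at an adjusted p-value under 0.05. Of the listed transcription factors, 0 with edgeR, 7 were called by DESeq2, 8 at an adjusted p-value under 0.05, and 1 each with library sizes alone, with no filter and with at least 10 counts, where only 7 of the 34 were tested. Genes with a group at the floor were 13, and 34 with a floor of 10 counts.

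With each library left out in turn, the count ranged from 28 to 963, the positive share from 38.5% to 75.4%, the share larger in TAM111 from 60.6% to 85.7% and the transcription factors called from 0 to 6. With the replicate block over all groups 105 genes passed, 65.7% of them positive, and 0 transcription factors. Pairing at 5 DAF alone, added after the data were seen, gave 1923 genes (41.2% positive, 71.9% larger in TAM111) and 16 transcription factors, and leaving out both replicate 3 libraries of 5 DAF gave 876 (30.3% positive) and 15. The sign turned for few named genes, all transcription factors that did not pass. TraesCS4A02G231300 had 0.2802 with limma-voom, 0.0854 with the block, 0.009782 with pairing at 5 DAF, 0.6875 without the replicate 3 libraries and -2.785 to 3.188 with 1 library left out. TraesCS4A02G263300 had 0.2095 with limma-voom and -1.523 to 1.096, TraesCS1D02G244500 had -3.716 to 0.7297, and TraesCS5B02G043100 had -0.5524 with pairing at 5 DAF and -0.6781 to 7.518. Of the other alternatives for named genes, 148 lost and 78 gained a call without a change of sign. The cause of these changes was not tested. Depth limits genes near the floor, where 1 count is at most 0.0362 CPM.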
